A study of Mus musculus with 7 samples.

Results

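Mitochondrial ribosomal proteins were followed in mouse NIH3T3 cells, a permanent line of embryonic fibroblasts, overexpressing Acid1. Of 20355 probes on the array, 79 carried a single gene symbol of the form Mrpl or Mrps followed by a number, and they covered 64 of the 9930 genes named by a single symbol. The rule used symbols alone, but the group itself was chosen with earlier results of these data known. Each of 7 two-colour arrays held cDNA of treated fibroblasts in 1 dye and of non-treated fibroblasts in the other: 4 arrays at 3 h after treatment (treated sample in Cy5 on replicates 1 and 2, in Cy3 on replicates 3 and 4) and 3 arrays at 10 h (Cy5 on replicates 1 and 2, Cy3 on replicate 3). The labels give neither the treatment nor what Acid1 stands for, no genotype, clone or age, and do not state whether cultures differed between arrays. The p-values therefore describe array-to-array spread alone, part of which may be technical. A probe needed values on 3 or more of the 3 h arrays and on 2 or more of the 10 h arrays, which 50 member probes of 46 genes met, or 63.3% of member probes against 56.8% of all probes.

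The mitochondrial ribosome translates the few messenger RNAs encoded in mitochondrial DNA, which specify core subunits of the respiratory chain and of ATP synthase. Its ribosomal RNAs come from the mitochondrial genome, whereas all of its proteins are encoded in the nucleus, made in the cytosol and imported. Many have bacterial homologues, and others are found only in mitochondrial ribosomes. The Mrpl genes encode proteins of the large subunit, which forms peptide bonds, and the Mrps genes mostly encode proteins of the small subunit, which holds the messenger RNA. Symbols and location do not always match: the products of Mrps30 and Mrps18a lie in the large subunit, and that of Mrps36 has since been assigned to the 2-oxoglutarate dehydrogenase complex. By this reading 28 of the 46 measured genes encode large-subunit proteins, 17 encode small-subunit proteins and 1 is Mrps36.

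The values are log2 ratios of the 2 dyes, and their direction is not stated in the labels. They were read as treated over non-treated. If the values were instead Cy5 over Cy3, the sign of the 3 arrays with the treated sample in Cy3 would turn. The 4 other arrays would keep theirs, and results are given under both of these readings. A reading as non-treated over treated would turn every array and is not shown. The repeated extreme value of each array, described below, was positive on those 4 arrays and negative on those 3. What this means for the direction was not tested. A ratio holds no level, so the labelled cell type could not be checked by abundance. Of 10 fibroblast markers 9 were measured, none with an adjusted p under 0.05, and their median lay 0.345 above that of all genes at 3 h and -0.18 from it at 10 h. Of 18 markers of epithelium, leukocytes, muscle, adipocytes and endothelium on the array, 6 were measured, 0 of them leukocyte markers. The part of other cell types in the values below was not tested. In such bulk RNA, fewer cells of a kind and less RNA per cell cannot be told apart.

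The promoters of these genes are known for binding sites of NRF1, GABP (an ETS-family factor) and YY1. RefSeq promoter windows of 300 bases (250 before and 50 after the start, GRCm38.p6) were found for 57 of the 64 genes, 63 windows in all. All motifs were searched on both strands. The NRF1 motif stood in 17.5% of member windows and in 6.38% of all protein-coding windows. The GABP letters CCGGAAG stood in 36.5% against 11.6%, and the YY1 letters AAGATGGCG in 12.7% against 1.83%. Windows of 1 gene can overlap, and over genes the shares were 19.3%, 40.4% and 14% against 7.17%, 12.9% and 2.14%. At least 1 of these 3 motifs stood in a window of 36 of the 57 genes. The CCAAT letters were as frequent in member windows as elsewhere (39.7% against 38.2%). The windows of Mrps11 and Mrpl46, 2 members transcribed away from each other on chromosome 7, shared 141 bases. Shown here are the 250 bases before the start, 5′ to 3′ on the gene's strand, for 3 members with values above 0 on most or all 10 h arrays: Mrpl30 (chr1:37890227-37890476, + strand) with the NRF1 motif in capitals, Mrpl3 (chr9:105053018-105053267, + strand) with the GABP letters in capitals, and Mrps18c (chr5:100798509-100798758, + strand) with the GABP letters of the other strand in capitals. A match is a description of the letters, not of binding.
Mrpl30: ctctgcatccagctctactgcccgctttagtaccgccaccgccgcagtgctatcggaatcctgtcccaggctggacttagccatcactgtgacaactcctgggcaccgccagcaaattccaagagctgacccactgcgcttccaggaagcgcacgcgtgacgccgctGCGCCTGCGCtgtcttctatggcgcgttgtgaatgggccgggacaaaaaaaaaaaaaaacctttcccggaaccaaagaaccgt
Mrpl3: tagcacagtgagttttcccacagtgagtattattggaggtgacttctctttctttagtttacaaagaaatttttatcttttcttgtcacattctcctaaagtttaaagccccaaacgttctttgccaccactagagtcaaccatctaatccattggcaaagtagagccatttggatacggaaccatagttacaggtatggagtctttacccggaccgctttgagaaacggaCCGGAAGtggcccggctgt
Mrps18c: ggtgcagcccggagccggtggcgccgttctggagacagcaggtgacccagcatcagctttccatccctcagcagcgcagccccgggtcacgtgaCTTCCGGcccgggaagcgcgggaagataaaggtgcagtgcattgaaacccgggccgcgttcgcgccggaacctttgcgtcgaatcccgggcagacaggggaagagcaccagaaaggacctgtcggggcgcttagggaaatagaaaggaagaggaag

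The arrays of both times gave usable values for most member probes. At 3 h between 57 and 64 of the 79 member probes were measured per array, and at 10 h between 60 and 67. Many 3 h values fell on a small whole-number ratio, meaning that both of its terms were 8 or less after removal of an offset per array (tolerance 0.0016 in log2). Among the member probes used, 26.1% to 44.7% of the values of a 3 h array did so, against 45.8% to 55.6% of all probes used and 15.4% to 23.4% of probes for cytosolic ribosomal proteins. At 10 h the member share was 4.17% to 6.25% and the share of all probes 8.2% to 9.47%. Over the 7 arrays 43 of the 50 member probes had no such value at 10 h, and 15 had none at 3 h. The member genes also varied less between arrays at 10 h. The median SD over arrays was 0.53 at 3 h and 0.197 at 10 h, against 0.715 and 0.338 over all 6573 genes, and at 10 h 24 of 46 members (52.2%) had an SD under 0.2 against 30.9% of all genes.

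**Figure D1:**
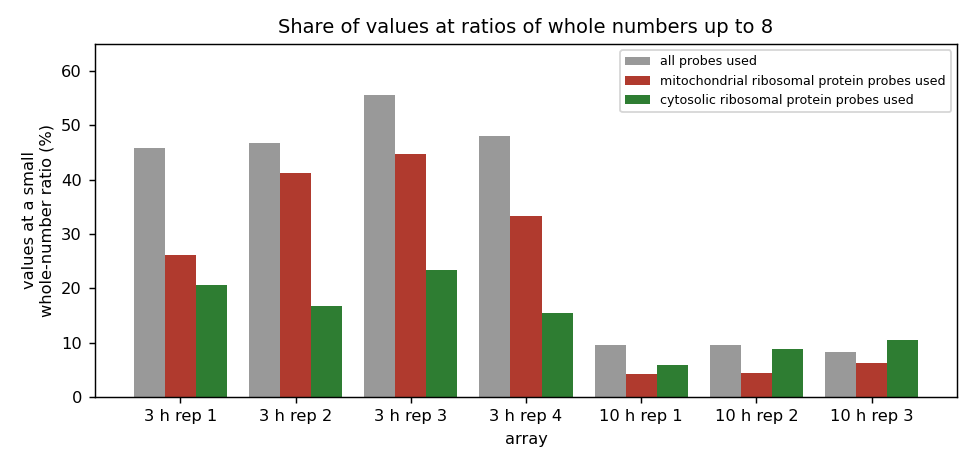
Share of values (y axis, percent) on each array (x axis) that fall on small whole-number ratios (terms up to 8), for all probes used, for mitochondrial and for cytosolic ribosomal protein probes. On the 3 h arrays the mitochondrial ribosomal protein probes stand at 26.1% to 44.7%, below all probes, and on the 10 h arrays at 4.17% to 6.25%.

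The first question is whether these genes differed between treated and non-treated cells at 3 h. No member did so beyond the spread between arrays. Of 50 member probes, 0 had an adjusted p under 0.05 in limma (Benjamini-Hochberg over 11559 probes, background 0%), the smallest being 0.322, and 4 had an unadjusted p under 0.05, which is 8% against a background of 13.6% of all probes. Over genes, 4 members were below 0 at that p (8.7% against 9.95%) and 0 above (background 3.13%). The median fitted log2 value of the 46 genes was -0.196, and that of all genes -0.131, so the group lay -0.065 from all genes. Fitted values were above 0 for 14 of 46 members, or 30.4% against 39.3% of all genes. On single arrays the group median, less the median of all genes, was -0.18, -0.003, -0.04 and 0.206 on replicates 1 to 4, or -0.004 ± 0.159 (mean ± SD, n = 4). The arrays thus did not share a sign. The fitted group median less that of all genes was 0.01 without 3 h replicate 1 and -0.123 without replicate 2. With the sign of the Cy3 arrays turned the group median was -0.114 and that of all genes 0.035, a distance of -0.149.

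Of 35 members with values on all 4 arrays at 3 h, 4 were below 0 on every array, Mrpl48, Mrpl49, Mrps11 and Mrps16, or 11.4% against a background of 13.4%. None was above 0 on every array, against 4.58% of all genes. With the Cy3 arrays turned 3 were below 0 on every array (8.57% against 5.6%) and 0 above (background 8.33%). On the Cy5 arrays alone 15 of 38 members were below 0 on both (39.5% against 34.2%) and 5 above (13.2% against 27.4%). On the Cy3 arrays 11 of 43 were below on both (25.6% against 34.4%) and 10 above (23.3% against 17%). Mrpl48, a mitochondria-specific protein of the large subunit, had log2 ratios of -0.60, -0.62, -1.006 and -0.31 on replicates 1 to 4, and -0.02, -0.25 and 0.06 at 10 h. All 4 values at 3 h lay below all 3 at 10 h, and the fitted 3 h value was -0.64 with a standard error of 0.23 (limma, adjusted p = 0.329 over 6573 genes). Another Mrpl48 probe, with too few values to be used, had 1.28 and -1.69 on replicates 1 and 3 at 3 h. Mrpl49, also mitochondria-specific, had -0.95, -0.96, -0.23 and -0.37 at 3 h, then 0.15, 0.31 and -0.01. Its arrays with the treated sample in Cy5 were the lower ones at 3 h (fitted -0.63, standard error 0.23, adjusted p = 0.337). Another Mrpl49 probe, also not used, had only 0.19 on replicate 2 at 3 h, and 0.34, -3.57 and -0.80 at 10 h. Mrps11, whose bacterial homologue belongs to the small subunit, had -0.06, -1.40, -1.10 and -0.52 at 3 h. It was the only member also below 0 on all 3 arrays at 10 h, at -0.54, -0.06 and -0.04. Mrps16, a small-subunit protein with a bacterial homologue, had -0.46, -0.74, -0.03 and -0.48 at 3 h and was above 0 on every 10 h array, at 0.12, 0.27 and 0.13.

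Mrpl37, a mitochondria-specific large-subunit protein, was measured on 3 arrays at 3 h, with -0.97, -0.98 and -1.29 on replicates 1, 2 and 4 (fitted -1.02, adjusted p = 0.349 in limma). At 10 h its 2 values of -0.29 and 0.93 disagreed in sign. Another Mrpl37 probe, with too few values to be used, had 0.36 and 1.52 on replicates 2 and 4 at 3 h, of opposite sign. Mrps17, a small-subunit protein with a bacterial homologue, had the lowest fitted value at 3 h, -1.13, from 0.13, -1.91 and -1.48 on replicates 1, 3 and 4. Its 10 h values of -0.90, -0.13 and 1.85 spread as widely, and all of its 3 h values fell on small whole-number ratios. Another Mrps17 probe, with too few values at 10 h to be used, had 1.45, 1.77 and -0.255 on replicates 1 to 3 at 3 h. Mrpl2 and Mrpl28, homologues of bacterial large-subunit proteins, split by dye at 3 h. Mrpl2 had 0.36 and -0.23 with the treated sample in Cy5 but -1.22 and -1.06 with it in Cy3. Mrpl28 had -0.08 and 0.38 in Cy5 but -1.43 and -1.35 in Cy3. At 10 h both were above 0 on every array, Mrpl2 at 0.14, 0.31 and 0.12 and Mrpl28 at 0.25, 0.38 and 0.21, with the Cy3 array the lowest of the 3 in both genes. The highest fitted values at 3 h belonged to Mrpl14, at 0.61 from 0.19, 1.48 and 0.94 on replicates 2 to 4, and to Mrpl9, at 0.59 from 0.45, -0.10 and 1.84 on the same arrays. Both encode large-subunit proteins with bacterial homologues, and neither passed (adjusted p = 0.496 and 0.651 in limma). All 3 h values of both genes fell on small whole-number ratios, and replicate 1 of Mrpl14 held the repeated extreme value.

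**Figure D2:**
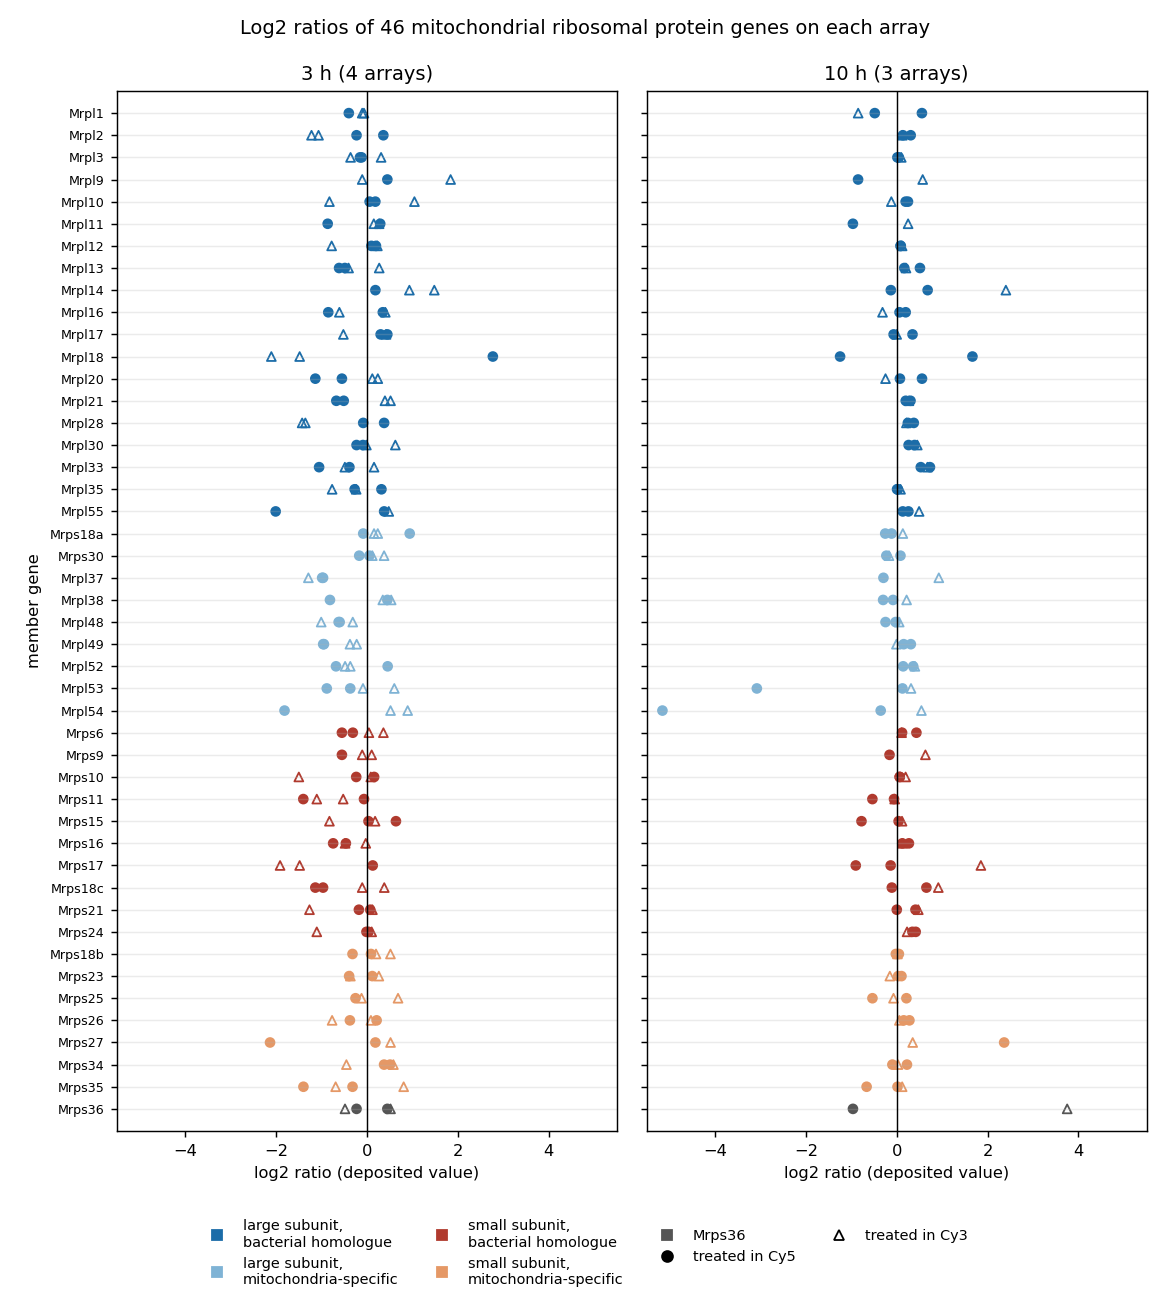
Deposited log2 ratio (x axis) of each of the 46 measured member genes (y axis, ordered by subunit and by whether a bacterial homologue is known) on every array at 3 h (left) and 10 h (right). Filled circles are arrays with the treated sample in Cy5, open triangles arrays with it in Cy3, and colours are the 4 classes and Mrps36. The 3 h points spread to both sides of 0, while most 10 h points lie in a narrow band with 30 of 46 fitted values above 0.

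The second question is the same at 10 h. Again no single member differed beyond the spread, but values slightly above 0 were more common among the members than among all genes. Of 50 member probes 0 passed in limma (background 0%, smallest adjusted p = 1), and 1, for Mrpl14, had an unadjusted p under 0.05, which is 2% against a background of 3.88%. Over genes, 2 members, Mrpl14 and Mrpl33, were above 0 at that p (4.35% against 1.57%) and 0 below (background 2.53%). The median fitted log2 value was 0.066 against -0.025 for all genes, so the group lay 0.091 above all genes. Fitted values were above 0 for 30 of 46 members, or 65.2% against 46.1%. On single arrays the group median lay 0.111, 0.037 and 0.165 above that of all genes on replicates 1 to 3, or 0.104 ± 0.064 (n = 3), with 3 of 3 arrays above 0. Without 10 h replicate 3 the group lay 0.165 above all genes, and without replicate 2 it lay 0.146 above. With the sign of the Cy3 arrays turned the group median was 0.003 and that of all genes 0.031, a distance of -0.029, and 24 of 46 members were above 0 against 54.9% of all genes.

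Of 39 members with values on all 3 arrays at 10 h, 17 were above 0 on each of them, or 43.6% against a background of 14.9%, and 1 was below 0 on each, or 2.56% against 14.7%. The 17 were Mrpl2, Mrpl3, Mrpl12, Mrpl13, Mrpl21, Mrpl28, Mrpl30, Mrpl33, Mrpl35, Mrpl52, Mrpl55, Mrps6, Mrps10, Mrps16, Mrps21, Mrps24 and Mrps26. Another Mrpl21 probe, with too few values to be used, had -0.88 and -0.31 on replicates 1 and 2 at 10 h. Another Mrps10 probe, also not used, had 0.13, -0.28 and 0.48. Under the other reading of the dyes the counts were 5 above (12.8% against 15.6%) and 5 below (12.8% against 11.9%). On the 2 arrays with the treated sample in Cy5, where both readings give the same sign, 22 of 40 members were above 0 on both (55% against 30%) and 6 were below on both (15% against 26.9%). The excess of members above 0 was therefore present on those 2 arrays alone, while its presence on the Cy3 array depends on the reading. These counts are descriptions and were not tested as a list.

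Mrpl33, a small large-subunit protein with a bacterial homologue, had the highest mean of the 17 at 10 h, with log2 ratios of 0.73, 0.53 and 0.68. Its 3 h values were -1.05, -0.39, -0.49 and 0.16, so the times did not overlap (10 h fit 0.71 with a standard error of 0.30, adjusted p = 1 in limma). Mrpl30, likewise with a bacterial homologue and shown above with its NRF1 motif, had 0.39, 0.26 and 0.45 at 10 h and -0.09, -0.23, -0.01 and 0.63 at 3 h. The highest 3 h value thus exceeded all 10 h values. Mrpl3, which has the GABP letters shown above, was close to 0 on every 10 h array at 0.015, 0.05 and 0.10. Mrps24, a small-subunit protein with a bacterial homologue, had 0.34, 0.42 and 0.23 at 10 h and -0.01, 0.04, -1.10 and 0.10 at 3 h. Mrpl52, which is mitochondria-specific, had 0.14, 0.36 and 0.40 at 10 h. Mrpl12, a homologue of the bacterial stalk protein that contacts translation factors, was above 0 by little, at 0.08, 0.09 and 0.12.

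The largest fitted values at 10 h came from genes whose arrays disagreed. Mrpl14 had -0.13, 0.68 and 2.40 (fitted 1.25, standard error 0.35, unadjusted p = 0.0111 but adjusted p = 1 in limma), and its fitted value was -0.96 with the Cy3 arrays turned. Mrps36 had -0.96 on replicate 1 and 3.75 on replicate 3 (fitted 1.39). Mrps27, a mitochondria-specific small-subunit protein that binds RNA, had 2.37 and 0.35 on the same arrays (fitted 1.36). At the low end Mrpl54, a mitochondria-specific large-subunit protein, had -0.35, -5.16 and 0.54 at 10 h, and -1.81, 0.90 and 0.52 on replicates 2 to 4 at 3 h (10 h fit -1.17). Mrpl18, a large-subunit protein with a bacterial homologue, had only 1.67 and -1.25 at 10 h, both with the treated sample in Cy5. Its 10 h fit of -2.07 lies below both values, since the dye term of the fit came from the 3 h values of 2.77, -2.10 and -1.48, which split by dye. In each of these 5 genes the 10 h arrays ranged over at least 2 log2 units. The 3 h values of Mrpl54 and Mrpl18 all fell on small whole-number ratios.

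**Figure D3:**
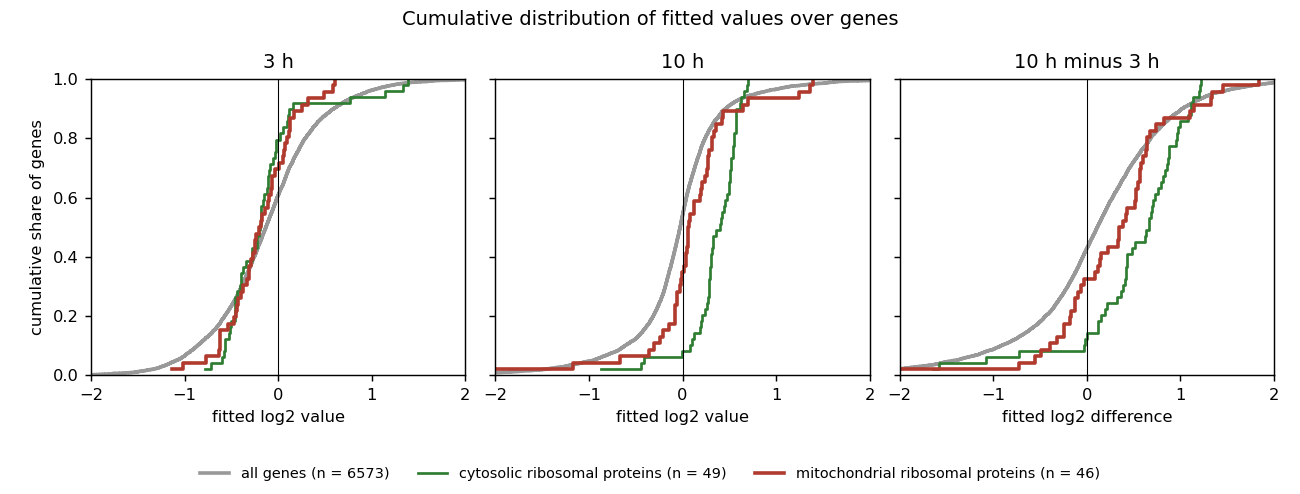
Cumulative share of genes (y axis) by fitted log2 value at 3 h, at 10 h and for the difference (x axes, drawn from -2 to 2), for all 6573 genes, 49 cytosolic and 46 mitochondrial ribosomal protein genes. At 10 h the mitochondrial curve lies to the right of all genes through its middle, by 0.091 at the median, and the cytosolic curve further right, by 0.428.

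The third question is whether the ratios differed between 10 h and 3 h. The member genes as a group were higher at 10 h under the reading used here and close to all genes under the other. Of 50 member probes 0 passed in limma (background 0%, smallest adjusted p = 0.581), and 2, for Mrpl33 and Mrps18c, had an unadjusted p under 0.05, which is 4% against 8.11%. Over genes the same 2 were higher at 10 h at that p (4.35% against 4.9%) and 0 lower (background 2.91%). The median fitted difference was 0.367 against 0.112 for all genes, or 0.255 above them, and 31 of 46 members were higher at 10 h (67.4% against 57.2%). With the Cy3 arrays turned the group lay 0.015 above all genes, with 23 of 46 higher. It lay 0.128 above without 3 h replicate 1, 0.141 above without 10 h replicate 3 and 0.158 above without 10 h replicate 1. Of the 46 members 22 had a fitted value below 0 at 3 h and above 0 at 10 h (47.8% against 29.1% of all genes), and 6 had the opposite order (13% against 22.3%). With the Cy3 arrays turned the counts were 13 (28.3% against 25.3%) and 8 (17.4% against 23.2%).

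Of 33 members with values on all 7 arrays, 5 had every 10 h value above every 3 h value, Mrpl33, Mrpl48, Mrpl49, Mrps16 and Mrps24, or 15.2% against a background of 8.59%. None had the opposite order, against 2.72%. Mrpl33 had the smallest p, with a fitted difference of 1.15 and a standard error of 0.39 (unadjusted p = 0.0203, adjusted p = 0.608 in limma), and 0.47 with the Cy3 arrays turned. Mrpl49 differed by 0.83 with a standard error of 0.36 (adjusted p = 0.653), and by 0.60 with the arrays turned. Mrps16 differed by 0.63 with a standard error of 0.35 (adjusted p = 0.681), and by 0.33 turned. Mrpl48 differed by 0.57 with a standard error of 0.36 (adjusted p = 0.704). Under the other reading its fitted 3 h and 10 h values were both 0.024. Its 10 h arrays were then all below 0, and the fit differs from them because the dye term is shared with 3 h. Mrpl13, a large-subunit protein with a bacterial homologue, went from -0.61, -0.48, -0.40 and 0.27 at 3 h to 0.17, 0.51 and 0.20 at 10 h. A single 3 h array, replicate 4, thus overlapped the 10 h values (fitted difference 0.64, adjusted p = 0.689).

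**Figure D4:**
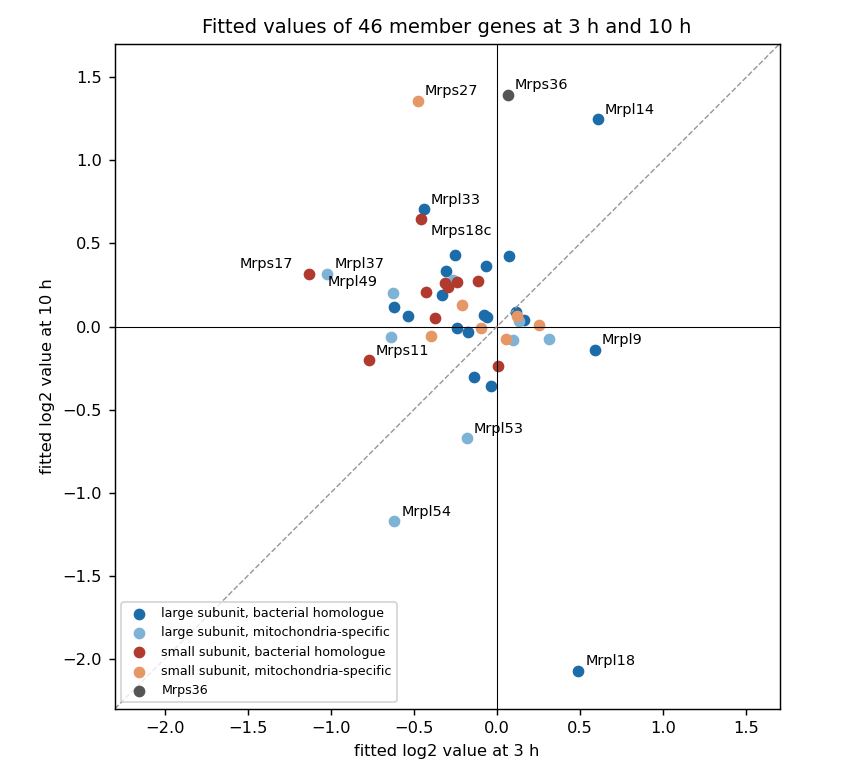
Fitted log2 value of each of the 46 member genes at 3 h (x axis) and 10 h (y axis), coloured by subunit and homology; the dashed line marks equal values and names mark genes far from the centre. The upper left field, below 0 at 3 h and above 0 at 10 h, holds 22 of the 46 genes.

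The 3 paralogues of the bacterial S18 family had different values on single arrays. Mrps18c, a small-subunit protein, had log2 ratios of -0.97, -1.13, -0.10 and 0.38 at 3 h and -0.11, 0.65 and 0.92 at 10 h. The groups overlapped, and the fitted difference of 1.11 with a standard error of 0.39 did not pass (unadjusted p = 0.0233, adjusted p = 0.612 in limma). Mrps18a, which lies in the large subunit, had -0.08, 0.94, 0.24 and 0.16 at 3 h and -0.11, -0.25 and 0.14 at 10 h. Mrps18b, in the small subunit, averaged over 2 probes, had -0.32, 0.09, 0.20 and 0.52 at 3 h. Its averages lay within 0.05 of 0 on each 10 h array, at -0.02, 0.05 and 0.02, but its 2 probes differed in sign there on replicates 1 and 3. The fitted differences of Mrps18a and Mrps18b were -0.39 and -0.06. The differences between paralogues were not tested.

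In all, 4 genes had 2 usable probes, which gives a view of how far probes of a gene match. The 2 probes of Mrps18b had -0.32, 0.25, 0.31 and 0.67 against -0.32, -0.07, 0.09 and 0.37 at 3 h, which keeps the order of the arrays. At 10 h they had 0.14, 0.085 and -0.11 against -0.18, 0.01 and 0.14, which reverses the order. Those of Mrpl10, which anchors the stalk of the large subunit, had -0.33, 0.41, 0.13 and -0.33 against 0.45, -0.04, -1.78 and 2.43, with opposite signs on all 4 arrays. At 10 h they lay closer, at 0.04, 0.19 and -0.23 against 0.36, 0.31 and -0.01. Those of Mrps23, a mitochondria-specific small-subunit protein, disagreed in sign on replicates 1 and 2 at 3 h, with 0.35 and -0.54 against -1.14 and 0.77. On the same replicates at 10 h they had 0.39 and 0.19 against -0.32 and 0.015. Those of Mrps6, a small-subunit protein with a bacterial homologue, were both below 0 on replicates 1 and 2 at 3 h, at -0.50 and -0.18 against -0.60 and -0.44, and gave 0.94 and -0.21 on replicate 4. At 10 h the probes of Mrps6 had -0.08, 0.57 and 0.05 against 0.31, 0.30 and 0.17.

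By class, a larger share of the genes with bacterial homologues had 10 h values above 0. Of 29 such genes 21 had a fitted 10 h value above 0 (72.4% against 46.1% of all genes), with a median 0.143 above all genes. Of 16 mitochondria-specific genes 8 did (50%, near the share of all genes), with a median 0.026 above. Between the times 22 of the 29 and 8 of the 16 were higher at 10 h (75.9% and 50% against 57.2% of all genes). In the small subunit 8 of 10 genes with homologues were above 0 at 10 h, with a median 0.275 above all genes, and 9 of 10 were higher at 10 h than at 3 h. Under the other reading 17 of the 29 (58.6%), 7 of the 16 (43.8%) and 4 of the 10 (40%) were above 0 at 10 h, against 54.9% of all genes. Under it 13 of the 29 (44.8%), 10 of the 16 (62.5%) and 3 of the 10 (30%) were higher at 10 h than at 3 h, against 47.3%. The order of the classes between the times thus depends on the reading. By subunit, 17 of 28 large-subunit (60.7%) and 12 of 17 small-subunit genes (70.6%) were above 0 at 10 h, with medians 0.084 and 0.153 above all genes. Under the other reading 17 of 28 (60.7%) and 7 of 17 (41.2%) were, against 54.9% of all genes, with medians -0.011 and -0.038 from all genes. The classes rest on knowledge of the ribosome, with Mrps18a and Mrps18b counted as mitochondria-specific, and the differences between them were not tested.

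Beside the cytosolic ribosomal proteins, the shift of the mitochondrial ones was small. Of 49 measured cytosolic genes 45 were above 0 at 10 h (91.8% against 46.1% of all genes), with a median 0.428 above all genes. Per array the mitochondrial median of 0.104 ± 0.064 (n = 3) stood beside 0.387 ± 0.056 for the cytosolic genes. At 3 h the 2 groups had -0.004 ± 0.159 and -0.065 ± 0.22 (n = 4). On replicates 1 to 4 at 3 h the cytosolic medians were -0.202, -0.228, -0.082 and 0.251, beside -0.18, -0.003, -0.04 and 0.206 for the mitochondrial ones. Probes for cytosolic ribosomal proteins may also bind transcripts of their many pseudogenes. With the Cy3 arrays turned, 42 of the 49 cytosolic genes (85.7%) and 24 of the 46 mitochondrial ones (52.2%) were above 0 at 10 h, against 54.9% of all genes. The cytosolic median then lay 0.142 above all genes. The turned means per array were 0.131 ± 0.45 for the cytosolic and -0.006 ± 0.143 for the mitochondrial genes (n = 3 each).

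**Figure D5:**
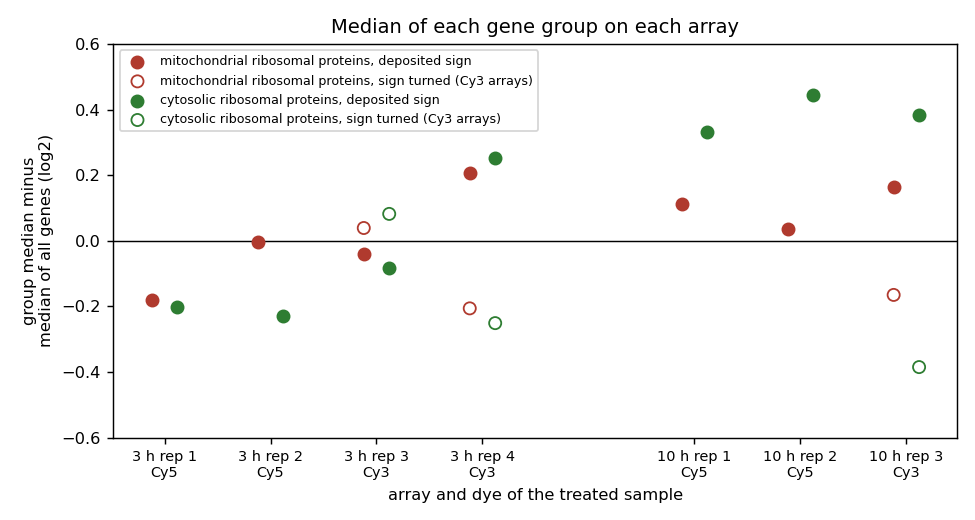
Median log2 ratio of each gene group less that of all genes (y axis) on each array (x axis, with the dye of the treated sample). Filled points have the deposited sign and open points the turned sign of the arrays with the treated sample in Cy3; at 10 h the filled mitochondrial points lie at 0.037 to 0.165 and the filled cytosolic points at 0.333 to 0.444.

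Other genes of mitochondrial gene expression lay on both sides of 0. Of 7 mitochondrial ribosomal proteins with other names, Dap3 and Chchd1, both of the small subunit, were measured, and the means of both were below 0 at 3 h and above 0 at 10 h. Chchd1 had -0.55 ± 0.53 (SD, n = 4) and then 0.15 ± 0.18 (n = 3), and Dap3 had -0.17 ± 0.69 and 0.12 ± 0.18. Of 6 translation factors 3 were above 0 at 3 h and 2 at 10 h (50% and 33.3% against 39.3% and 46.1% of all genes). Gfm2, which helps to split the ribosome after termination, had -1.09 ± 0.53 at 3 h (n = 3) and -1.47 ± 0.67 at 10 h (n = 3), below 0 on every array that measured it (unadjusted p = 0.016 and 0.00823, adjusted p = 0.313 and 1 in limma). Tsfm, the exchange factor of the elongation factor Tu, went from 0.72 ± 1.04 (n = 4) to -0.79 ± 0.70 (n = 3). Of 4 transfer RNA synthetase and amidotransferase genes 1 (25%), Sars2, was above 0 at each time (0.31 ± 0.44 and 0.17 ± 0.11).

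Of 17 genes of ribosome assembly and mitochondrial RNA maturation, 10 were above 0 at 3 h and 10 at 10 h, with medians 0.193 and 0.053 above all genes. That is 58.8% at each time, against 39.3% and 46.1% of all genes. Mrm1, a methyltransferase of the ribosomal RNA, had 1.78 ± 1.57 at 3 h (n = 3) and -0.18 ± 0.47 at 10 h (n = 2), and Lrpprc, which stabilises mitochondrial messenger RNAs, went from -0.24 ± 0.98 to 1.41 ± 1.36 (n = 3 each). Of 13 genes for the upkeep and transcription of mitochondrial DNA and for the factors that regulate them, 5 were above 0 at 3 h (38.5%) and 7 at 10 h (53.8%). The helicase Twnk had -0.96 ± 0.50 (n = 3) and -0.56 ± 0.07 (n = 2), and Polg2, the accessory subunit of the DNA polymerase, -0.66 ± 0.47 (n = 4) and -0.17 ± 0.28 (n = 3). Nrf1 and Gabpa, whose letters were searched in the promoters, had -0.02 ± 0.86 (n = 3) and -0.48 ± 0.61 (n = 4) at 3 h and 0.47 ± 0.78 and -0.03 ± 0.24 at 10 h (n = 3 each). No gene of these 5 lists passed in any of the 3 comparisons in limma, against a background of 0%.

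The remaining 18 member genes had too few values: Mrpl4, Mrpl15, Mrpl23, Mrpl34, Mrpl36, Mrpl42, Mrpl43, Mrpl44, Mrpl45, Mrpl46, Mrpl47, Mrpl51, Mrpl57, Mrpl58, Mrps5, Mrps7, Mrps12 and Mrps22. Just outside the limit, with 2 values at 3 h and 3 at 10 h, Mrps12, the homologue of the bacterial protein that carries streptomycin resistance mutations, had -0.29 and 1.10 at 3 h and 0.89, 0.60 and 0.59 at 10 h. Mrpl15 had 1.90 and 0.52 at 3 h and -1.19, 0.16 and -1.18 at 10 h. Just inside, with 3 and 2 values, Mrps9, a small-subunit protein with a bacterial homologue, had -0.55, -0.10 and 0.10 at 3 h and -0.16 and 0.63 at 10 h. With the limit lowered to 2 values at each time 52 genes were used, and the group lay 0.113 above all genes at 10 h.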

How the data were processed

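The deposited table holds log2 ratios of the 2 channels of each array. The base of the logarithm was inferred from steps between low values, as no label names it. Scanner software, background correction, normalization and direction were not given in the sources used here. Per the labels' protocols, total RNA was turned into cDNA, to which Cy3 or Cy5 was coupled afterwards. They also mention organs and pooled control animals, unlike the source names, which were followed. Each array held 1 repeated value over 15 in size, which was treated as missing. It was 16.054 to 17.06 with the treated sample in Cy5 and -16.713 to -15.978 with it in Cy3. No centring was added; array medians ran from -0.103 to 0.049.

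Probes were named by the platform annotation, and all 64 member genes were found in the RefSeq table, with 0 symbols changed. The linear model per probe (limma 3.58.1, R 4.3.3, lmFit and eBayes) had a mean per time and a dye term of 0.5 or -0.5 over all 7 arrays, and gave the tests against 0 at 3 h and 10 h and of their difference, two-sided, with Benjamini-Hochberg adjustment over 11559 probes. Where arrays shared the same control RNA, a time mean against 0 leaves out the control's own spread. Gene values are means over usable probes, fitted likewise over 6573 genes. The fit was run on simulated data with the same normal spread for all probes, no dye effect and planted shifts larger than those of the group. That run checked the code and cannot tell whether shifts as small as the group's would be found. Per-array values are given for the 8 members with the smallest p in each comparison, the 2 highest and 2 lowest at each time, genes with 2 probes and the Mrps18 paralogues; others were named after their values were seen, for the counts of genes on 1 side of 0 and for the promoters. Up to 2 genes of each related list were named by p. The members and lists were chosen with earlier results of these data known. Intensities were not used, so precision rests on the number of arrays.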

Additional observations from a re-analysis of the deposited data

How the results depend on the processing

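The count of member probes that passed was 0 in all 3 comparisons under every alternative run (limma; 0 to 5 at an unadjusted p under 0.05); over all probes, 6 passed at 3 h with the values over 15 kept. At 3 h the group median relative to all genes, -0.065, turned to 0.013 with the replicate block and ran from -0.123 to 0.01 with each array left out. At 10 h, 0.091 turned to -0.029 with the sign of the Cy3 arrays turned and ran from 0.099 to 0.165 with each array left out. The difference, 0.255, was 0.015 with the sign turned and ran from 0.128 to 0.33 with each array left out. The other alternatives moved the group median by less than the SD between arrays: -0.149 to -0.021 at 3 h, 0.084 to 0.154 at 10 h and 0.13 to 0.298 for the difference; the lowest difference, and the 3 h value of -0.021, came from settings chosen after the data were seen (the 4 arrays with the treated sample in Cy5, and probes without small whole-number ratios at 10 h). The cause was not tested. Fitted alone, 10 h gave values for 39 genes.

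Deviations of same-numbered arrays correlated at only 0.028, 0.031 and 0.091 over 6369 probes. Not every array correlated best with its own number, as 10 h replicate 2 had 0.048 with 3 h replicate 1. Such low values cannot tell whether same-numbered arrays shared a culture. The replicate block, which takes the place of the dye term, gave 0.142 at 10 h and 0.298 for the difference over 40 genes. Of 1367 values of named genes under the alternatives, 74 moved by more than the SD between arrays and 90 changed sign, 8, 9 and 9 of them (10 h, 3 h and difference) with the sign of the Cy3 arrays turned.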

Other observations

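The correlation of the member genes between arrays differed in sign from pair to pair. Over the 40 to 43 member genes shared by a pair, the Pearson correlation of the 10 h arrays was 0.01 for replicates 1 and 2, -0.284 for 1 and 3 and 0.054 for 2 and 3. The Spearman rank correlations were 0.161, -0.341 and 0.334. Over all genes the Pearson values of these pairs were 0.092, -0.054 and -0.074, and the rank values 0.136, 0.002 and -0.008. At 3 h, the Cy3 pair had a Pearson correlation of 0.526 over 43 genes and the Cy5 pair 0.099 over 38, while replicates 1 and 3, of opposite dye, had -0.442 over 40. Over all genes these 3 h pairs had 0.069, 0.225 and 0.05. The points of a pair share the 2 arrays, and these values are descriptions.

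The repeated extreme value occurred on 16 member spots at 3 h, 2, 3, 5 and 6 on replicates 1 to 4, and on 0 at 10 h. Each array has 79 member spots among 20355. On the same arrays the extreme value occurred on 1177 to 1614 of all spots at 3 h and on 163 to 210 at 10 h. It was thus so rare at 10 h that the count of 0 says nothing particular of the members.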
